A study of Mus musculus with 16 samples.

Results

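The arrays compared here carry RNA from cells of the olfactory mucosa that did not show the S100a5 activity reporter (GFP- cells), sorted after mice had inhaled 2-hexanone, a small ketone odorant, or filtered air (vehicle). They were chosen by their titles as the 4 odor GFP- and the 4 vehicle GFP- arrays, 8 of the 16 arrays of the study, and all 22206 probe sets that are not controls were compared. The study's title calls the design the Kentucky assay, and it asks which odorant receptors belong to neurons that respond to an odorant. Every mouse, vehicle mice included, carried S100a5-tauGFP, in which the promoter of S100a5 drives green fluorescent protein. There were 24 mice of both sexes, aged 7 to 12 weeks, held singly under clean air flowing at 3.1 L per min for 40 h, and the stimulus, odor or vehicle, was given from 26 h on in pulses of 10 s at intervals of 20 min. Cells of 3 mice made a pool and each of 8 pools was sorted by its fluorescence, so a GFP- sample shares its mice with a GFP+ sample and 4 separate pools stand for each treatment. The sort reads a reporter of past activity and not a response to 2-hexanone itself, and the GFP- gate takes any cell that lacks the reporter.

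Each mature olfactory sensory neuron makes a single kind of odorant receptor. When an odorant binds it, the G protein subunit encoded by Gnal, adenylyl cyclase and a cyclic nucleotide-gated channel carry the signal, calcium enters, and a set of activity-dependent genes that includes S100a5 follows over hours. Neurons that respond are therefore sought among GFP+ cells, while GFP- cells hold neurons with little of the reporter together with immature neurons, progenitors, supporting cells and blood cells.

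The gene of the reporter bore out the sort. S100a5 was lower in GFP- than in GFP+ cells by 1.38 on the log2 scale in vehicle and by 1.61 in odor, with no overlap between the fractions in either treatment. Omp, a protein abundant in mature olfactory neurons, stood between 19.23 and 19.49 on the 8 GFP- arrays, close to the highest deposited value (19.81). It was about level between the fractions (GFP+ minus GFP- 0.0053 in vehicle and 0.0926 in odor). Of 16 mature neuron markers 14 were above background on all 8 GFP- arrays. A probe set was taken as above background when it exceeded the highest of 23 antigenomic background bins of its array (6.23 to 6.77 on the GFP- arrays); 9104 probe sets did so on all 8 arrays and 10852 on none. Neutrophil markers were above background for 15 of 16 genes, whereas 12 of 14 endothelial and stromal markers lay under background on all 8 arrays. The 8 arrays correlated with each other at Pearson r = 0.979 to 0.992 across probe sets, which are not independent. The first principal component held 28.0% of the variance and ran from vehicle pool 1 (-46.7) to vehicle pool 4 (54.9), with the 4 odor pools between them. Among the odor pools it also ran from pool 1 (-27.1) to pool 4 (22.7). Pools 3 and 2 lay between, in that order, in both treatments. The deposited values go above what a scanner reads directly, so all log2 differences and folds are on a scale that the authors had transformed in an unstated way. Precision is set by there being only 4 arrays in a group.

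The promoter of S100a5 is shown because it drives the reporter by which these cells were sorted, that of Pcdh10 because this protocadherin gene had the highest difference of any probe set, and that of Olfr193 because it is a receptor whose groups did not overlap in either fraction and whose RefSeq model starts before the start codon, unlike that of Olfr191. Each run is the 250 bases before the annotated start of the gene, read 5′ to 3′ on the strand of the gene, from RefSeq on GRCm38.p6: chr3:90608272-90608521 (plus strand), chr3:45378148-45378397 (plus strand) and chr16:59110634-59110883 (minus strand).
S100a5: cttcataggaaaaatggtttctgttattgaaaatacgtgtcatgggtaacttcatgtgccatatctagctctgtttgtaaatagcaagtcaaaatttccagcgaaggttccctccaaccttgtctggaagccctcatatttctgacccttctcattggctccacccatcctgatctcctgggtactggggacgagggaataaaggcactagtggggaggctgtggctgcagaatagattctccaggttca
Pcdh10: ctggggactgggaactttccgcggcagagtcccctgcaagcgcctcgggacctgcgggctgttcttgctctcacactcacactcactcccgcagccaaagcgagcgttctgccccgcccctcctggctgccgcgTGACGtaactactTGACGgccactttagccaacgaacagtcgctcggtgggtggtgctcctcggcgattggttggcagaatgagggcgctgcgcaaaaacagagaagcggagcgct
Olfr193: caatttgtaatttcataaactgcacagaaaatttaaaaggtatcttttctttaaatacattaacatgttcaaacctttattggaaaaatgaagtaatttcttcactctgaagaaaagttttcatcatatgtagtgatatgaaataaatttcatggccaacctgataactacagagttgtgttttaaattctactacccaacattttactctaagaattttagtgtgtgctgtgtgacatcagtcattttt
Capitals mark TGACG, the shorter core of the cAMP response element that CREB, a calcium- and cAMP-activated factor, can bind. It occurred in the Pcdh10 window at 116 and 103 bases before the start, and 17.8% of 32851 RefSeq windows of the same length held it on either strand. The full element TGACGTCA (1.55% of windows), the AP-1 site TGANTCA (6.75%), the homeodomain core TAATTA (4.84%), the Ebf (Olf-1) palindrome (0.779%) and the TATA box TATAAA (12.4%), searched on both strands, matched none of the 3 windows; TGACG lies within TGACGTCA. A match is a string of letters and shows no binding, and its absence here says only that these letters are not in this window.

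No gene met the adjusted threshold in GFP- cells after 2-hexanone. Of 22206 probe sets, 0 passed limma's test at a Benjamini-Hochberg adjusted p below 0.05 (0% called), and the smallest adjusted p was 0.065, that of the receptor gene Olfr191. At an unadjusted p below 0.05 there were 273 higher (1.23%) and 274 lower (1.23%), 547 in all or 2.46%. The 4 odor arrays lay wholly above the 4 vehicle arrays for 209 probe sets (0.941%) and wholly below them for 185 (0.833%), and the median difference was 2e-04. Alternatives to this fit called at most 1 gene, either Olfr191 or Pcdh10, as given with those genes. Among the 9104 probe sets above background on all 8 arrays, 58 were higher (0.637%) and 75 lower (0.824%) at the unadjusted threshold.

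How small a change could be seen depended on the kind of gene. The 95% interval of the difference lay within 1 log2 unit of 0 for 88% of all probe sets, and for 95.2% of the 8524 above-background probe sets that are not receptors. For the 580 receptors above background it did so for 49.5%, since their median standard error was 0.35 against 0.21 for those others. A p that misses the threshold does not show equal levels.

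**Figure D1:**
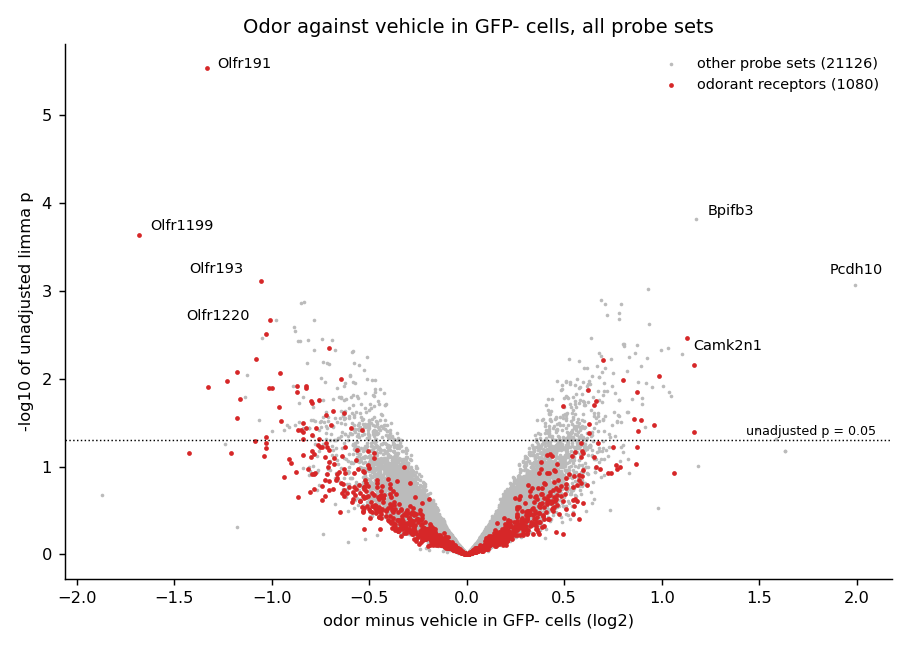
Each point is a probe set in GFP- cells, with the odor minus vehicle difference in log2 units on the horizontal axis and -log10 of the unadjusted limma p on the vertical axis; the 1080 odorant receptors are red and the dotted line is an unadjusted p of 0.05. Olfr191 stands highest at a difference of -1.33, and 0 of the 22206 probe sets passed after adjustment.

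S100a5 itself, the gene of the reporter, did not separate the treatments in GFP- cells. Its levels were 15.18, 15.13, 14.89 and 15.23 in odor pools 1 to 4 and 15.60, 15.06, 14.94 and 14.54 in vehicle pools 1 to 4. The odor values lay inside the vehicle range, and the difference was 0.07 ± 0.25 (SE, n = 4 pools per group; 95% interval -0.45 to 0.60; limma adjusted p = 1; exact two-sided permutation p = 0.743). Without vehicle pool 4 it was -0.09. Omp had a difference of -0.01 ± 0.14 (-0.31 to 0.29, adjusted p = 1) and overlapping groups. It read close to the highest deposited value, and whether a change could be read at that level was not tested. The sign of the Omp difference turned with quantile normalization over all 16 arrays (0.05).

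Odorant receptors, the class of genes the sort was built to read, were spread more widely than other genes. Of 1080 receptors, 0 passed, 17 were higher (1.57%) and 41 lower (3.8%) at the unadjusted threshold, against 1.23% in each direction over all probe sets. Their median difference was -0.03, beside 2e-04 over all probe sets, and the median absolute deviation was 0.33 against 0.20. Without overlap of the groups there were 7 higher (0.648%) and 9 lower (0.833%), close to the 0.941% and 0.833% of all probe sets. Among the 580 receptors above background on every GFP- array, 10 were higher (1.72%) and 18 lower (3.1%) at the unadjusted threshold. Over all 9104 probe sets above background on every GFP- array the shares were 0.637% and 0.824%. In bulk RNA, fewer neurons that express a receptor and less receptor RNA per neuron cannot be told apart.

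Olfr191, a class II receptor gene on chromosome 16, had the lowest p of all probe sets. It read 10.94, 10.84, 10.67 and 10.96 in odor pools 1 to 4 and 12.17, 12.20, 12.42 and 11.94 in vehicle pools 1 to 4. Every odor array lay below every vehicle array, with a gap wider than the range within either group. The difference was -1.33 ± 0.20 (SE, n = 4 pools per group; 95% interval -1.75 to -0.92), or 2.52-fold lower with odor, with an unadjusted limma p of 2.93e-06 and an adjusted p of 0.065. The exact two-sided permutation p was 0.0286, the smallest that 4 against 4 arrays can give. Over 22 alternatives the difference ran from -1.46 to -1.26 and the adjusted p from 0.0031 to 0.754. It passed in 6 of them: a trended robust prior (0.0031), values raised to the background floor (0.00569), array weights (0.0259), quantile normalization of the 16 arrays together (0.0297) or of each fraction alone (0.0344), and the lowest 40% of probe sets left out (0.0328).

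In GFP+ cells of the same pools Olfr191 went the other way. It read 15.23, 14.68, 14.72 and 15.43 in odor and 14.43, 14.46, 13.92 and 14.41 in vehicle, again without overlap. That difference was 0.71 ± 0.20 and did not pass over all probe sets (limma adjusted p = 1). The odor effect in GFP+ minus that in GFP- cells was 2.04 ± 0.28 (95% interval 1.45 to 2.63) and did pass (limma adjusted p = 0.0116). Its range over 20 alternatives was 1.84 to 2.28, with adjusted p from 0.000713 to 0.202, and it kept the call in 11. It lost the call whenever any 1 of the 8 pools was left out, each of which also leaves fewer arrays (adjusted p = 0.0546 to 0.114). The gap between the fractions thus stood at 2.12 in vehicle and 4.16 in odor for this receptor.

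Olfr193, its neighbour in the same receptor family, showed the same order of groups. It read 10.01, 10.14, 10.33 and 10.59 in odor and 11.05, 11.19, 11.59 and 11.45 in vehicle GFP- cells. The groups did not overlap, and the difference was -1.05 ± 0.26 (95% interval -1.60 to -0.51; unadjusted p = 0.000762; limma adjusted p = 1). GFP+ cells read 13.47, 13.34, 13.52 and 14.27 in odor and 12.27, 13.13, 11.95 and 12.84 in vehicle. Odor was above vehicle on every GFP+ array, by 1.10 ± 0.26 (limma adjusted p = 0.68). The change between fractions, 2.15 ± 0.37, did not pass (limma adjusted p = 0.121); it passed in 3 of 20 alternatives, with a trended robust prior, with values raised to the floor and with the mouse pool taken as a random effect, and its adjusted p ran from 0.00662 to 0.91.

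Only 2 probe sets passed for the change between fractions (0.00901%), both above 0. At an unadjusted p below 0.05 there were 316 above 0 (1.42%) and 334 below. That fit takes the 2 fractions of a pool as independent. With the pool as a random effect Olfr191, Olfr1494 (limma adjusted p = 0.00536 for both) and Olfr193 (0.0383) passed. The probe set besides Olfr191 that passed in the main fit is Olfr1494, a class II receptor on chromosome 19. It is also 1 of the 2 probe sets that passed in GFP+ cells (0.00901%), with a difference of 2.81 there (limma adjusted p = 0.000128). In GFP- cells it read 10.67, 10.89, 11.02 and 11.24 with odor and 10.62, 10.86, 11.30 and 10.88 with vehicle. Those groups overlapped and the difference was 0.04 ± 0.27 (95% interval -0.52 to 0.61), which turned to -0.13 without vehicle pools 1 and 4. The change between fractions was 2.77 ± 0.38 (1.97 to 3.57; adjusted p = 0.0116), and leaving out each pool in turn gave adjusted p from 0.0317 to 0.119, below the threshold only without vehicle pool 1 (0.0476) or vehicle pool 2 (0.0317). Olfr195 and Olfr1110, receptors known from an earlier account of these data for their differences in GFP+ cells (3.35 and 2.01), had GFP- differences of -0.23 ± 0.55 and 0.16 ± 0.39. Their 95% intervals, -1.39 to 0.93 and -0.66 to 0.97, are wide, and the groups overlapped for both.

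**Figure D2:**
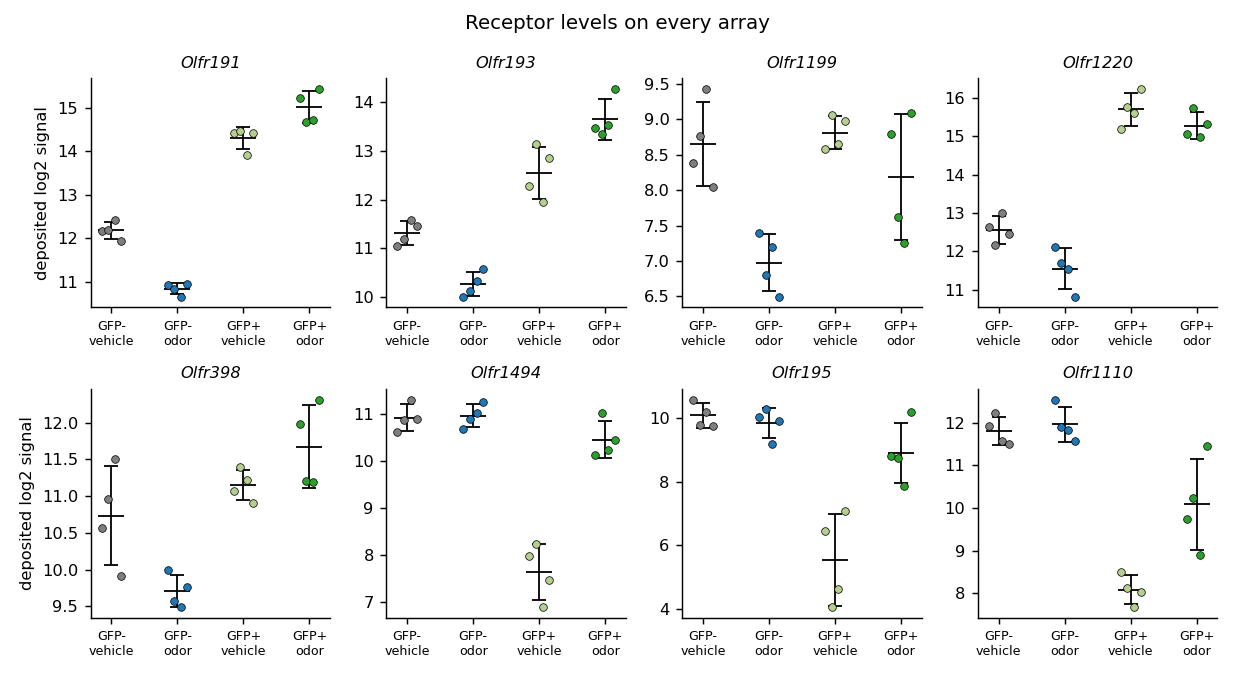
Deposited log2 signal of 8 receptors (vertical axis, a separate scale for each) on the 4 arrays of each group, with the mean (bar) and SD (whiskers). Olfr191 and Olfr193 lie lower with odor in GFP- cells and higher with odor in GFP+ cells, while the GFP- arrays of Olfr1494, Olfr195 and Olfr1110 overlap.

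The other receptors of lowest p were lower with odor in GFP- cells and did not pass either. Olfr1199 read 7.40, 6.81, 7.20 and 6.50 with odor, above background on 3 of 4 arrays, and 8.39, 8.76, 9.43 and 8.04 with vehicle. No odor array reached the vehicle range, and the difference was -1.68 ± 0.36 (unadjusted p = 0.000233; limma adjusted p = 1). Olfr1220 read 12.10, 11.70, 11.54 and 10.81 with odor and 12.62, 12.15, 13.00 and 12.44 with vehicle, which again did not overlap (-1.01 ± 0.28). Olfr1199 and Olfr1220 had GFP+ differences of -0.63 and -0.43. Olfr398 read 9.99, 9.58, 9.49 and 9.77 with odor and 10.56, 10.97, 11.50 and 9.91 with vehicle, with 1 vehicle array inside the odor range (-1.03 ± 0.30). The highest receptor difference among those above background on all 8 arrays, chosen after its value was seen, was that of Olfr855, at 8.97, 8.94, 9.43 and 8.70 with odor and 8.15, 7.65, 7.42 and 8.14 with vehicle (1.17 ± 0.38, adjusted p = 1). Its groups did not overlap.

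The families of the receptors that passed for the change between fractions were followed by name. MOR families group receptors by sequence, and 1061 of 1080 receptors had a MOR name; Olfr191 and Olfr193 both carry MOR183 names, and Olfr193 is also listed under MOR113. Of the 7 measured MOR183 receptors, which lie on chromosome 16, only 3 were above background on all 8 GFP- arrays (Olfr186, Olfr191 and Olfr193). In GFP- cells 6 of the 7 had a difference below 0 and 3 were lower at the unadjusted threshold, where 1.23% of all probe sets and 3.8% of receptors were lower. The third is Olfr196, at 7.22, 5.78, 5.92 and 5.59 with odor and 8.12, 7.38, 6.94 and 7.38 with vehicle (-1.33 ± 0.48). Only 1 of its 4 odor arrays was above background, and 1 odor array lay inside the vehicle range. With values raised to the background floor its difference was -0.57 (limma adjusted p = 0.683), so its size rests on readings under background. Olfr186 and Olfr183 had differences of -0.57 ± 0.31 and -0.71 ± 0.36, the second under background on all 8 arrays, and Olfr187 had 0.10 ± 0.33. In GFP+ cells 6 of the 7 were above 0 and 3 were higher at the unadjusted threshold (1.98% of all probe sets and 5.19% of receptors were). For the change between fractions 5 of 7 were above 0 at that threshold (1.42% of all probe sets and 2.78% of receptors). The family was chosen through Olfr191, so its counts are a description, and whether its probe sets also bind RNA of family members was not tested.

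Chromosome 16 also holds MOR184, the family of Olfr195, which was followed after these values were known. Of its 8 members, 5 of them above background on all 8 arrays, 7 were below 0 in GFP- cells, 0 were lower at the unadjusted threshold and the median was -0.19. In GFP+ cells all 8 were above 0, 4 of them at the unadjusted threshold, where 1.98% of all probe sets and 5.19% of receptors were higher. The nearest by value to the MOR183 receptors were Olfr178 at -0.62 ± 0.31 and Olfr177 at -0.56 ± 0.33. A further family on that chromosome, MOR182, had 5 of 10 members on either side of 0, with 1 of the 10 above background on all 8 arrays. MOR266, the family of Olfr1494 on chromosome 19, had 3 of 8 members below 0, a median of 0.12 and a range of -0.24 to 0.38, and 0 at the unadjusted threshold.

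**Figure D3:**
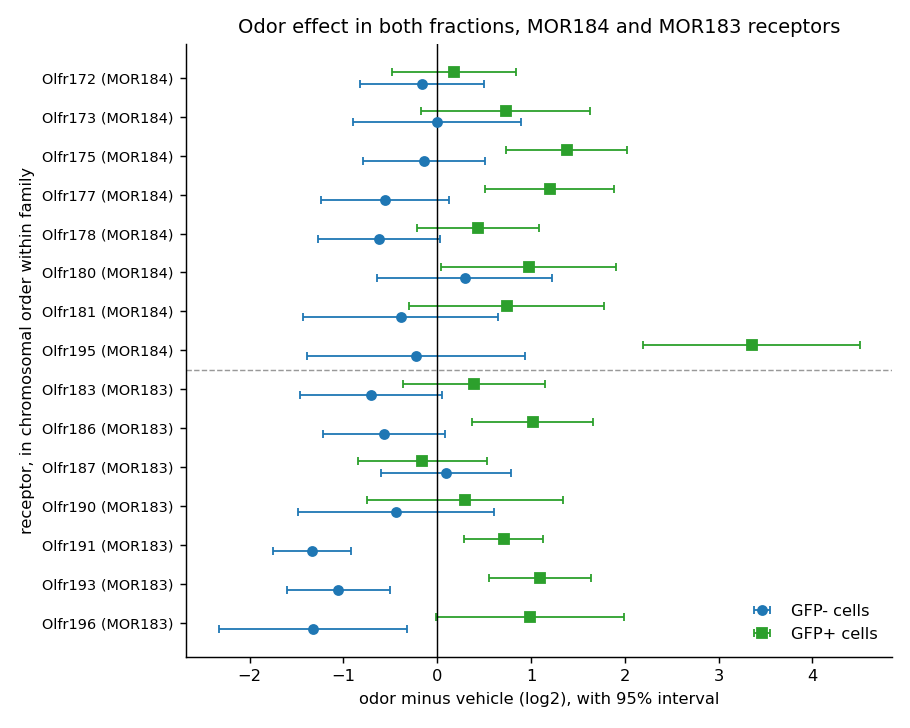
Odor minus vehicle difference in log2 units (horizontal axis) with its 95% interval for the 8 MOR184 and 7 MOR183 receptors (vertical axis), in GFP- cells (blue circles) and GFP+ cells (green squares). The GFP- intervals of Olfr191, Olfr193 and Olfr196 (the last read above background on 1 odor array) lie wholly below 0, and the GFP+ point lies to the right of the GFP- point for every receptor shown except Olfr187.

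Activity-dependent neuronal genes gave no call in GFP- cells. Of 14 genes 0 passed, 2 were higher at the unadjusted threshold (1.23% of all probe sets were) and 10 of 14 differences were below 0, with a median of -0.07. The 2 were Pcdh10 and Camk2n1. Kirrel2, a homophilic adhesion molecule of olfactory axons whose level follows activity, had -0.38 ± 0.42. Calb2, a calcium buffer, had -0.20 ± 0.23, and Lrrc3b, a leucine-rich repeat membrane protein, had the lowest difference at -0.72 ± 0.44. The levels of the list averaged 12.39, 12.55, 12.34 and 12.58 in odor pools 1 to 4 and 12.65, 12.39, 12.50 and 11.99 in vehicle pools 1 to 4.

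Pcdh10 encodes a protocadherin, an adhesion molecule of neurons whose level follows activity, and its upstream sequence is printed above. It read 9.09, 9.40, 8.79 and 10.99 with odor and 7.32, 7.39, 7.03 and 8.57 with vehicle in GFP- cells. The groups did not overlap, and pool 4 was highest in each. The difference was 1.99 ± 0.50 (95% interval 0.95 to 3.04), 3.97-fold on the deposited scale, with an unadjusted p of 0.000862 and a limma adjusted p of 1. Over 22 alternatives it ran from 1.51 to 2.36 with adjusted p from 0.0012 to 1, and it passed in 1, with the replicate number as a block over all 16 arrays. In GFP+ cells the difference was 2.65 ± 0.50, and the change between fractions was 0.66 ± 0.70 (95% interval -0.82 to 2.14).

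Camk2n1, an inhibitor of the calcium-dependent kinase CaMKII, was the gene other than Olfr1494 that passed in GFP+ cells (2.81, limma adjusted p = 0.00268). In GFP- cells it read 7.47, 7.84, 8.35 and 8.06 with odor and 6.73, 7.10, 6.58 and 6.88 with vehicle. All odor arrays were above all vehicle arrays, and the difference was 1.10 ± 0.35 (95% interval 0.38 to 1.83; unadjusted p = 0.00521; adjusted p = 1). The change between fractions, 1.71 ± 0.49, did not pass (adjusted p = 1). Sema7a, a semaphorin of olfactory axons, read 13.05, 13.33, 12.96 and 13.61 with odor and 12.59, 12.75, 12.65 and 12.74 with vehicle, again without overlap (0.56 ± 0.21, unadjusted p = 0.0178, adjusted p = 1). Its GFP+ difference was 1.18 ± 0.21.

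Immediate early genes, transcription factor and phosphatase genes induced within minutes of stimulation or of tissue dissociation, had 0 of 25 members called. At the unadjusted threshold 1 was higher (Egr3) and 1 lower (Fosl1), where 1.23% of all probe sets were in each direction. Of the 25 differences 11 were above 0 and 14 below, and the median was -0.04. Egr3 read 7.94, 9.06, 8.57 and 8.20 with odor and 8.14, 7.93, 7.74 and 7.74 with vehicle (0.55 ± 0.25), with 1 odor array inside the vehicle range; its other 2 probe sets, which read dimmer, had differences of -0.15 and 0.02. Fos, the most used activity marker of neurons, had -0.11 ± 0.26 and Egr1 -0.14 ± 0.31. Npas4, a neuron-restricted activity factor, and Arc, a synaptic immediate early gene, lay under background on all 8 arrays. The list varied with the pools in both treatments: its mean level was 9.71 to 10.49 over odor and 9.73 to 10.70 over vehicle arrays.

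**Figure D4:**
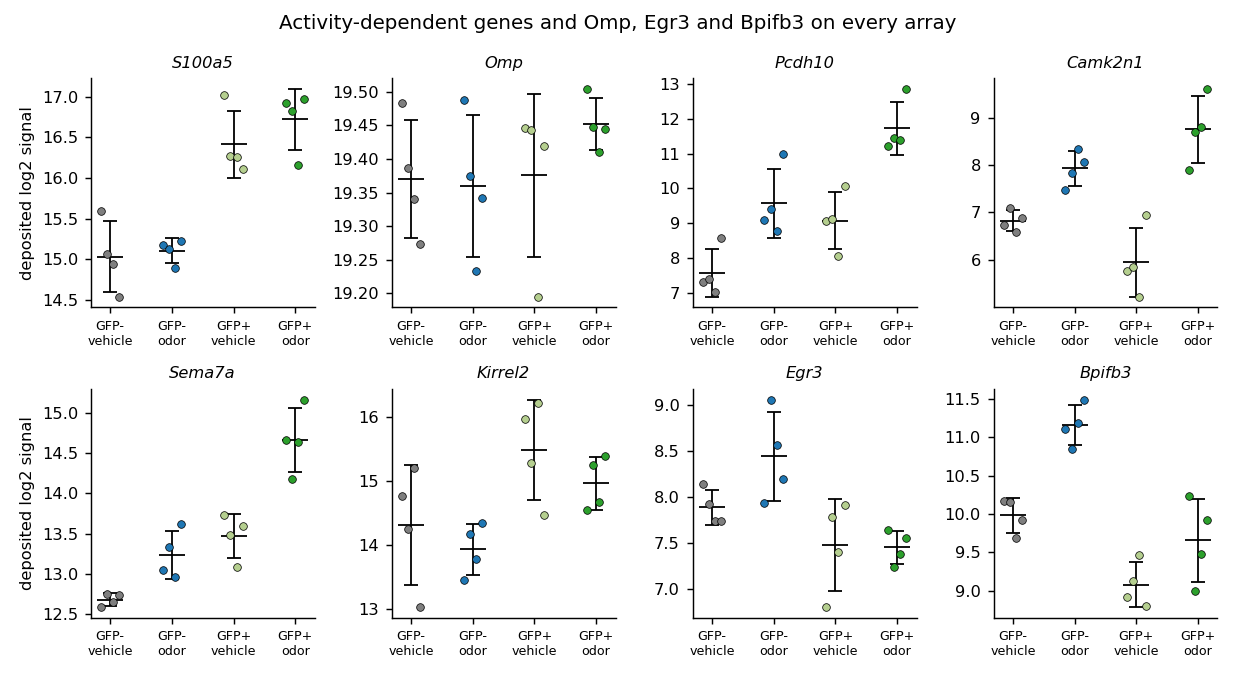
Deposited log2 signal (vertical axis, a separate scale for each) of 8 genes on the 4 arrays of each group, with the mean (bar) and SD (whiskers). Pcdh10, Camk2n1, Sema7a and Bpifb3 have higher means with odor in both fractions, none of them past the adjusted threshold in GFP- cells, while S100a5 and Omp overlap between treatments.

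Genes of the odor detection machinery had narrow intervals and gave no call. Of 22 signal transduction genes 18 were above background on all 8 arrays and 4 under it on all 8. Of the 22, 0 passed and 1, Camk2n1, was higher at the unadjusted threshold (1.23% of all probe sets were). The median was -0.02 and the median interval half-width was 0.38. Gnal, the olfactory G protein subunit, had -0.0011 ± 0.15, Adcy3, the cyclase, 0.02 ± 0.14, Cnga2, a channel subunit, -0.08 ± 0.22 and Ano2, the calcium-gated chloride channel, -0.08 ± 0.18. Of 14 genes for receptor trafficking and choice 0 differed at either threshold, with Rtp1, a chaperone of receptors, at -0.04 ± 0.21 and Lhx2, a factor of receptor choice, at -0.07 ± 0.15. Mature neuron markers had 0 of 16 members at either threshold and a median of -0.04, and zone genes 0 of 8 and -0.04.

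Younger cells of the lineage gave no call. Immature neuron markers had 13 of 17 differences below 0, a median of -0.10 and 0 at either threshold; Gap43, a growth cone protein, stood at -0.21 ± 0.26. Of 11 basal and progenitor markers 7 lay under background on all 8 arrays and 2 above it on all 8. At the unadjusted threshold 1 of the 11 was lower, where 1.23% of all probe sets were. This was Nhlh1, a factor of late progenitors and young neurons. It read 9.94, 9.09, 8.68 and 9.25 with odor and 10.33, 9.72, 9.77 and 9.65 with vehicle (-0.63 ± 0.26, adjusted p = 1), with overlap through odor pool 1. Cell cycle genes had 0 of 18 at either threshold and a median of -0.06. Neurofilament genes had 1 of 5 lower at the unadjusted threshold (1.23% of all probe sets were), Ina, at -0.51 ± 0.22. Of those 5 genes 3 lay under background on all 8 arrays.

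Axon guidance and sorting genes had 0 of 22 called and 4 higher at the unadjusted threshold (1.23% of all probe sets were higher). These were Pcdh10, Sema7a, Sema3f, a secreted repellent of olfactory axons, at 0.53 ± 0.24, and Ntrk2, a neurotrophin receptor, at 0.51 ± 0.21 but under background on all 8 arrays. The median of the list was -0.03 and 12 of 22 differences were below 0. Pcdh10 is on this list and on the activity-dependent list.

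Among supporting cells, 10 of 12 sustentacular markers had differences above 0, with a median of 0.28 against 2e-04 over all probe sets, and 0 passed. Cbr2, a carbonyl reductase, read 12.42, 12.12, 11.99 and 11.84 with odor and 12.08, 11.31, 11.56 and 11.01 with vehicle (0.61 ± 0.29, unadjusted p = 0.0483, adjusted p = 1). Its groups overlapped, and Cyp2g1, the cytochrome P450 that defines these cells, had 0.34 ± 0.37. The mean of the list was 8.42 to 8.73 over odor arrays and 8.19 to 8.58 over vehicle arrays. Of 28 xenobiotic metabolism genes 3 were higher at the unadjusted threshold, against 1.23% of all probe sets (Cbr2, the glutathione transferase Gstm1 at 0.46 ± 0.22, and Aldh1a7, under background), and the median was 0.03. Cbr2 and Cyp2g1 are on both lists. Oxidative stress and unfolded protein response genes had 0 of 13 and 0 of 16 at either threshold, with medians of 1e-04 and -0.07.

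Bpifb3, which encodes a secreted protein of the BPI-fold family, had the lowest p of all genes that are not receptors. It read 11.12, 10.85, 11.19 and 11.50 with odor and 10.17, 10.16, 9.69 and 9.93 with vehicle. All odor arrays lay above all vehicle arrays, and the difference was 1.18 ± 0.24 (95% interval 0.66 to 1.69; 2.26-fold; unadjusted p = 0.00015; limma adjusted p = 1). It passed in none of 22 alternatives, with adjusted p from 0.161 to 1. In GFP+ cells its difference was 0.58 ± 0.24 (95% interval 0.06 to 1.09; adjusted p = 1), and the change between fractions was -0.60 (95% interval -1.33 to 0.13). Bpifb3 was the 1 of 14 gland and respiratory markers higher at the unadjusted threshold, where 1.23% of all probe sets were. The other 13 did not pass that threshold, and Obp2a, an odorant-binding protein, had 0.83 ± 0.51. Of the 14 markers 8 lay under background on all 8 arrays and 4 above it on all 8. The mean of that list, which includes those readings under background, was 6.51, 5.84, 6.46 and 6.55 with odor and 6.01 to 6.19 with vehicle. Bag3, a co-chaperone of the heat shock response, was above background on 3 of 4 odor arrays and 0 of 4 vehicle arrays (difference 0.69 ± 0.18, adjusted p = 1). Odor pool 4 read 6.61, under its floor of 6.77, so no fold is given for Bag3. With values raised to each array's background floor, a setting that moved the median of all probe sets to 0.16, its difference was 0.21. Siglece and Lurap1, the remaining genes of lowest p, lay under background on all 8 arrays.

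Blood cell markers varied widely among the vehicle pools. Neutrophil markers averaged 12.95, 12.56, 12.90 and 13.24 in odor pools 1 to 4 and 11.37, 12.96, 12.84 and 14.10 in vehicle pools 1 to 4, so the vehicle pools spanned the odor range on both sides. Of 16 neutrophil, 16 macrophage and pan-leukocyte, 10 lymphocyte and 2 erythroid markers, 0 differed at either threshold, with medians of 0.09, 0.00, 0.14 and -0.38. Camp, a neutrophil granule peptide, ran from 7.99 in vehicle pool 1 to 12.62 in vehicle pool 4. The median half-width of a neutrophil marker's 95% interval was 0.98, against 0.51 over all probe sets. Among 16 antigen presentation and interferon genes 1 was lower at the unadjusted threshold (1.23% of all probe sets were), Ifit1, an interferon-induced gene, at -0.65 ± 0.25. Uty and Eif2s3y, Y-linked genes, ranged from 6.79 to 11.12 over the pools and did not differ by treatment at the unadjusted threshold. The mice were of both sexes, and the titles do not give the sexes in each pool. Eif2s3y was lowest in pool 1 and highest in pool 4 in both treatments (8.46 and 10.97 with odor, 7.10 and 11.12 with vehicle). Uty was also highest in pool 4 in both treatments, but it was lowest in pool 3 (7.62 with odor, 6.79 with vehicle) and not in pool 1. The part of blood cells and of the sexes in a pool in the differences of other genes was not tested.

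**Figure D5:**
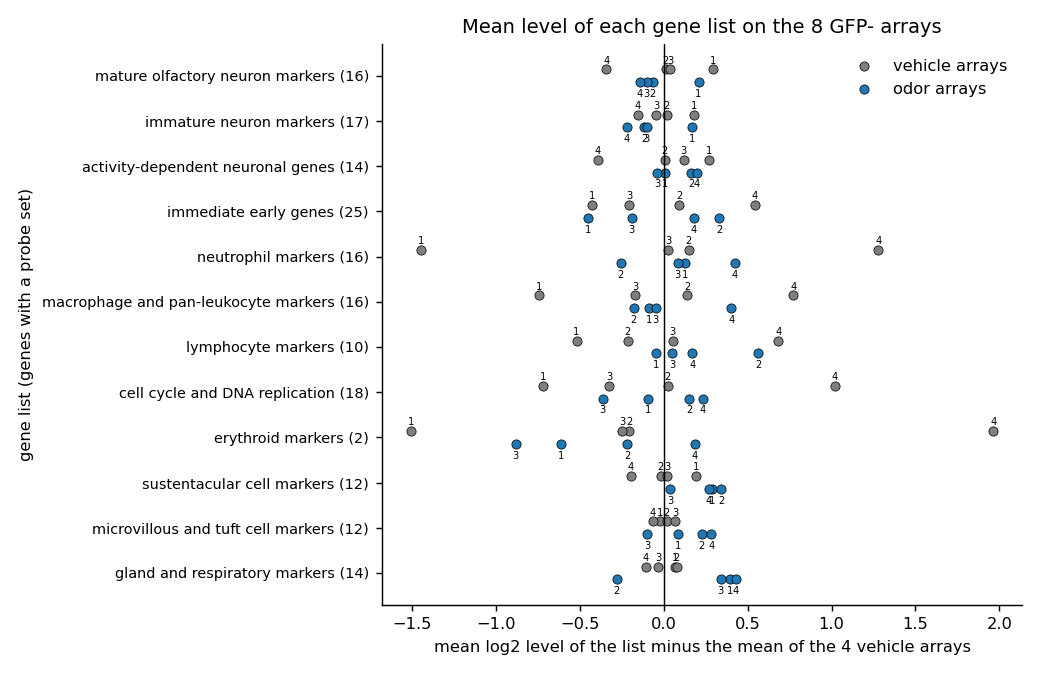
Mean log2 level of 12 gene lists (vertical axis, with the number of genes) on each GFP- array, less the mean of the 4 vehicle arrays (horizontal axis); small digits are pool numbers. Vehicle pools 1 and 4 lie at opposite ends for neutrophil and erythroid markers, and the 4 odor pools lie between them.

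The calls were looked at again without those 2 pools, an alternative chosen after their values were seen. With vehicle pools 2 and 3 alone against the 4 odor pools, 0 of 22206 probe sets passed in GFP- cells and 0 for the change between fractions, where Olfr191 and Olfr1494 had 2.28 and 3.02 (limma adjusted p = 0.202 for both). Fewer arrays enter that fit. The remaining lists gave no call, and many of their genes lay under background. Microvillous and tuft cell markers had 0 of 12 at either threshold (median 0.16), with 5 under background on all 8 arrays. Ensheathing glia markers had 0 of 7 (-0.08), with 5 under background on all 8 arrays. Non-canonical sensory neuron genes had 0 of 6 (0.01), with 4 under background on all 8 arrays. Of 14 endothelial and stromal markers 12 lay under background on all 8 arrays, among them Pdgfrb, the 1 lower at the unadjusted threshold. Of all probe sets 1.23% were lower at that threshold.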

How the data were processed

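Clariom S mouse arrays gave 1 log2 signal for every probe set, as the authors deposited it. The submitters' processing notes name Affymetrix Expression Console; for its version and summarisation method nothing is given in the sources used here. RNA input was 50 to 100 ng per sample, per the labels' protocols. Of 28846 probe sets 6640 controls were left out, and 19572 of the 22206 tested had 1 gene symbol from the platform annotation; 2634 had none. MOR names came from RefSeq synonyms (GRCm38.p6), and 14 receptors carry 2 of them.

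Groups and replicate numbers came from the titles. Models were fitted in limma 3.58.1 under R 4.3.3 with 4 group means over all 16 arrays and 12 residual degrees of freedom, Benjamini-Hochberg adjusted over 22206 probe sets, and the code was tested on simulated data. Single genes also had an exact permutation test. The 26 gene lists (390 entries, 357 with a probe set), the rule for named genes and the alternatives were chosen with earlier results of these data known. Named were S100a5, Omp and Camk2n1, the 5 receptors and 5 other genes of lowest p, Olfr1494, Olfr195 and Olfr1110, the 2 members of lowest p per list, and the MOR families of receptors that passed; other genes in the text were singled out from the lists or after their values were seen. Plots used matplotlib 3.10.9. Alternatives were another prior, normalizations, filters, background floor, array weights, blocks, sample sets and each pool left out.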

Additional observations from a re-analysis of the deposited data

Results flagged for a closer look

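Odor effects that differed between the fractions were those of Olfr191 (GFP+ minus GFP- difference of 2.04) and Olfr1494 (2.77), both past the threshold for the difference itself. Olfr193 (2.15) is listed because every odor array lay below vehicle in GFP- cells and above vehicle in GFP+ cells; the test of the difference did not pass over all probe sets.

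A single array stood apart from the other 3 of its group in 9 of 200 groups of 4, where chance gives about 1 in 20. The gap to the nearest array, as a share of the group's range, was 0.873 for Lurap1 (vehicle pool 3), 0.915 for Ano2 (vehicle pool 1, high), 0.879 for Stmn4 (vehicle pool 3, low), 0.894 for Asns (vehicle pool 2, high), 0.993 for Psmb8 (vehicle pool 4, high) and 0.858 for Foxi1 (vehicle pool 1, high). In odor it was 0.895 for Olfr1490 (pool 1, low), 0.882 for the mean of the oxidative stress list (pool 4, high) and 0.871 for the mean of the gland and respiratory list (pool 2, low).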

How the results depend on the processing

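Over 22 alternatives, the 5 main results gave 108 values, of which 81 kept their direction and side of the threshold. The count of genes called in GFP- cells, 0, and that of receptors, 0, were each 1 (Olfr191, lower) with a trended robust prior, either quantile normalization, the lowest 40% of probe sets left out, values raised to the background floor, and array weights. With the replicate number as a replicate block over all 16 arrays 1 gene was called (Pcdh10, limma adjusted p = 0.0012), and with the replicate block in the 8 GFP- arrays alone 0 were, with a smallest adjusted p of 0.071. The numbers did not pair all the pools by the rule used. Deviations of odor and vehicle arrays of the same number correlated at 0.354, 0.0841, 0.031 and 0.214. For 3 of 4 odor and 3 of 4 vehicle arrays the best correlation was with their own number. Along the first principal component of the GFP- arrays both treatments ran in the order of pools 1, 3, 2 and 4. At an unadjusted limma p below 0.05 the replicate block gave 752 probe sets over all 16 arrays, against 547 without it. In the 8 GFP- arrays alone it gave 895 against 612. What pools of equal number share was not tested. The 2 genes whose odor effect differed between fractions became 0 to 1 when each pool was left out in turn, and 0 without vehicle pools 1 and 4, an alternative chosen after seeing the data.

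Some differences, none past the threshold, changed sign, and the cause was not tested. Omp had 0.0468 with quantile normalization over all arrays, 0.049 within fractions, and -0.0544 to 0.031 when each pool was left out in turn; S100a5 then ran from -0.091 to 0.26. Psmb8 had 0.068 with values at the floor. Leaving out each pool gave Olfr1494 -0.059 to 0.1692, Olfr1110 -0.0385 to 0.2926, Olfr187 -0.1161 to 0.347, Olfr1495 -0.1781 to 0.1553, Olfr1418 -0.1853 to 0.0433, Ano2 -0.1876 to 0.0293, Kcnmb3 -0.3524 to 0.0295, Asns -0.2523 to 0.0503 and Gucy2d -9e-04 to 0.3253. For markers of blood cells, glia and sex, with the difference over all pools in brackets, it gave Retnlg (0.31) -0.0904 to 0.7922, Camp (0.41) -0.4051 to 1.1375, Jchain (0.61) -0.0523 to 1.0386, Slc4a1 (-0.44) -0.9038 to 0.1021, Alas2 (-0.33) -0.8676 to 0.4416, Fabp7 (-0.36) -0.7597 to 0.3312 and Eif2s3y (0.40) -0.2482 to 1.0904. Without vehicle pools 1 and 4, Olfr1494 had -0.1255, Ano2 0.0301, Alas2 0.0186, Gucy2d -0.1111, Olfr1420 -0.2118 and Olfr1418 0.0681. Probe sets under background give no fold, and 10852 of 22206 were so on all 8 arrays.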

Other observations

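Of the 9104 probe sets above background on all 8 GFP- arrays, 54 had odor arrays wholly above vehicle (0.593%) and 60 wholly below (0.659%). From those 54 and 60, a few metabolic and neuronal genes outside the lists and receptors were chosen after their values were seen. They did not pass over all probe sets and were not followed under the alternatives. Odc1, the ornithine decarboxylase that starts polyamine synthesis, read 9.45, 9.58, 8.77 and 9.58 with odor and 10.19, 10.12, 9.96 and 10.07 with vehicle (-0.74 ± 0.22). Gpx6, a glutathione peroxidase of the olfactory epithelium, read 10.18, 9.16, 10.40 and 10.05 with odor and 9.11, 8.96, 8.69 and 8.89 with vehicle (1.03 ± 0.32). Glrx5, a mitochondrial glutaredoxin of iron-sulfur cluster assembly, had -0.58 ± 0.18, and Trim9, a neuronal ubiquitin ligase of axon branching, had -0.59 ± 0.18.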
